A study of Mus musculus with 31 samples.

Results

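Embryoid bodies (EBs) of day 8 were set against sorted mouse ES cells, over 12 of the 31 deposited Affymetrix MgU74Av2 arrays. The members were chosen by their titles: 6 arrays of EBs at day 8 and 6 arrays of ES cells at day 0 sorted on an Oct4 reporter, over all 12422 probe sets that are no Affymetrix control. The day 8 EBs came from B6 ES cells kept on gelatin, which were seeded into non-adherent dishes after LIF was withdrawn, and were collected on the 8th day. The sorted cells were undifferentiated B6 ES cells, grown on mouse embryonic feeders with fetal calf serum and LIF and taken by flow cytometry for green fluorescence of an Oct4-GFP reporter. The EBs were therefore not seeded from the sorted cells. The gate also set Pou5f1 (the gene of OCT4) in the sorted cells by selection, so its difference between the groups holds that choice. All RNA was amplified in 2 rounds, and the methods state 6 biological samples per time point. The p-values rest on the spread between arrays within groups, pooled over all 31 arrays and 5 groups of the series. They treat the 6 day 8 arrays as independent samples, although these fall into 2 sets of like arrays (below). EBs and ES cells are bulk samples, in which fewer cells of a type and less RNA per cell cannot be told apart.

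Mouse ES cells self-renew under LIF, which acts through the LIF receptor, its partner gp130 and the transcription factor STAT3, and under BMP, which induces the ID proteins. The factors OCT4, SOX2 and NANOG bind many regulatory sites together and keep the pluripotent program active, with a second circuit of KLF4, KLF2, ESRRB, TBX3 and TFCP2L1 that marks the naive state. Without LIF, ES cells aggregate into EBs, form an outer layer of extraembryonic endoderm and pass through an epiblast-like stage toward the germ layers.

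Values are dChip signal on a linear scale, where probe sets are not comparable in level with each other. A floor of 59.59 (the 5th percentile over all arrays) replaced lower signals before the log2 step. A change is the log2 difference of day 8 EBs minus sorted ES cells with its standard error (SE) from limma, fitted over all 31 arrays, and it passed where the adjusted p was under 0.05 (Benjamini-Hochberg over 12422 probe sets). A gene is represented by the brightest of its probe sets that carry 1 symbol, which gave 8251 genes. A gene is called held where it did not pass and the 95% confidence interval of its change lay within 1.5-fold (0.585 on the log2 scale) on both sides. It is called unresolved where it did not pass and the interval was wider. A probe set is dim where its mean signal was under 427.7, the 40th percentile.

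The 6 day 8 arrays fell into 2 sets of like arrays. Arrays 1, 3 and 5 correlated at 0.994 to 0.996 with each other, arrays 2, 4 and 6 at 0.986 to 0.994, and arrays of different sets at 0.972 to 0.990. Arrays 1, 3 and 5 also lay nearer to the sorted cells (0.964 to 0.975, against 0.934 to 0.962 for arrays 2, 4 and 6), whose own arrays correlated at 0.980 to 0.997. The Y-linked translation factor gene Eif2s3y had 2447, 2608 and 2434 on day 8 arrays 1, 3 and 5 and 579, 358 and 366 on arrays 2, 4 and 6, against 82.7 to 159 in sorted cells. The other Y-linked genes Kdm5d (medians 278 at day 8 and 249 in sorted cells) and Uty (206 and 172) were dim and held. Kdm5d passed as higher without day 8 array 3 (limma adjusted p = 0.0244) and Uty with arrays 1, 3 and 5 alone (0.48, limma adjusted p = 0.00878). The labels give no batch for the sets, and no cause of the split was tested. Named calls that ended with either set alone are given beside the result, with the split of the ES cell genes or in the last paragraph of these results. The 3' to 5' signal ratio of the Gapdh control was 2.11 to 2.61 at day 8 and 2.76 to 3.09 in sorted cells. That of the beta-actin control went the other way, with 2.66 to 3.48 at day 8 and 2.40 to 2.88 in sorted cells.

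At day 8, 1896 probe sets were higher and 2473 lower than in sorted ES cells (292 and 157 of them at least 2-fold). Over genes, 1398 of 8251 were higher (16.9%), 1598 lower (19.4%), 4720 held (57.2%) and 535 unresolved, with a median change of -0.02. In 868 genes (10.5%) all 6 day 8 arrays lay above all 6 sorted arrays, and in 798 (9.67%) all lay below. These shares of all genes are the background for the list counts that follow.

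Of 146 listed ES cell genes 107 were measured. In day 8 EBs, 45 were lower (42.1%, 18 of them at least 2-fold), 13 higher (12.1%), 39 held (36.4%) and 10 unresolved, with a median change of -0.26. Of all 8251 genes 19.4% were lower, 16.9% higher and 57.2% held, so ES cell genes were held less often than genes at large. All 6 day 8 arrays lay below all sorted arrays in 29 genes and above them in 6, against 9.67% and 10.5% of all genes. By sub-list the falls took in 6 of 13 core pluripotency factors and cofactors (median -0.59), 13 of 27 naive-state genes (median -0.39), 7 of 14 genes shared with germ cells (median -0.36) and 17 of 39 further ES cell genes (median -0.27). Of 16 epiblast and primed-state genes 3 were lower, 4 higher and 8 held (median -0.02).

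**Figure D1:**
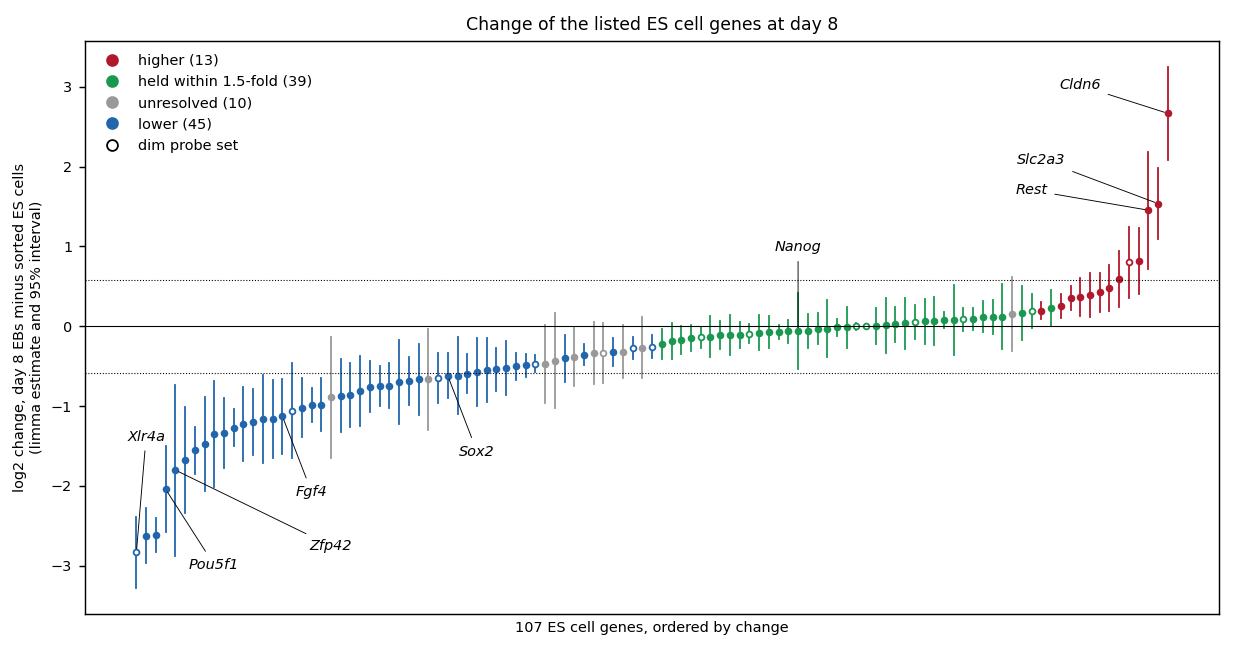
Log2 change of the 107 measured ES cell genes in day 8 EBs minus sorted ES cells, ordered by size, with 95% confidence intervals from limma and dotted lines at 1.5-fold. The plot runs from Xlr4a at -2.83 to Cldn6 at 2.67, and the 39 held genes lie near 0 with intervals inside the dotted lines.

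Nanog, the homeodomain factor of the core network, was at sorted-cell level in day 8 EBs on its brightest probe set. Its signal was 6553, 4571, 7379, 5421, 8087 and 4685 on day 8 arrays 1 to 6, against 6753, 7281, 6908, 6738, 4363 and 5833 on sorted arrays 1 to 6. The groups overlapped, and the change was -0.06 ± 0.23 (limma adjusted p = 0.897, interval -0.54 to 0.42). With either set of 3 day 8 arrays alone it was unresolved, at 0.23 for arrays 1, 3 and 5 and -0.35 for arrays 2, 4 and 6. A second Nanog probe set was lower, with a mean of 1527 at day 8 and 2381 in sorted cells (-0.66 ± 0.18, limma adjusted p = 0.0042). The 2 probe sets of the gene thus differ, and the held call belongs to the brighter of them.

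Utf1, a chromatin protein of undifferentiated cells, ran from 1598 (median 2135, highest 2438) at day 8, against 1949 (median 2384, highest 2515) in sorted cells. Its change was -0.18 ± 0.11, and it was held. The corepressor Trim28, which silences retroviral elements, had 5204, 6334 and 7923 as lowest, median and highest signal at day 8 and 5571, 6464 and 7462 in sorted cells (-0.03 ± 0.09). Hcfc1, a host cell factor of transcription complexes, was held at -0.17 ± 0.09. Utf1 (-0.39) and Hcfc1 (-0.29) were lower with day 8 arrays 2, 4 and 6 alone.

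Pou5f1 and Sox2, the partners of Nanog, were not held. Pou5f1 had 2016, 961, 2316, 949, 2747 and 1210.1 on day 8 arrays 1 to 6, against 5491 (median 6569.9, highest 6899) in sorted cells. Every day 8 array lay below every sorted array, and the change was -2.04 ± 0.26 (4.11-fold lower, limma adjusted p = 8.9e-07). A second Pou5f1 probe set was held, with means of 617 at day 8 and 643 in sorted cells (-0.06 ± 0.06). Sox2 had 3801, 5120.1 and 6075 as lowest, median and highest signal at day 8 and 6056, 7646 and 9238 in sorted cells. These groups overlapped by a narrow margin, and the change was -0.62 ± 0.14 (limma adjusted p = 0.000943). With day 8 arrays 1, 3 and 5 alone Sox2 was unresolved at -0.43.

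**Figure D2:**
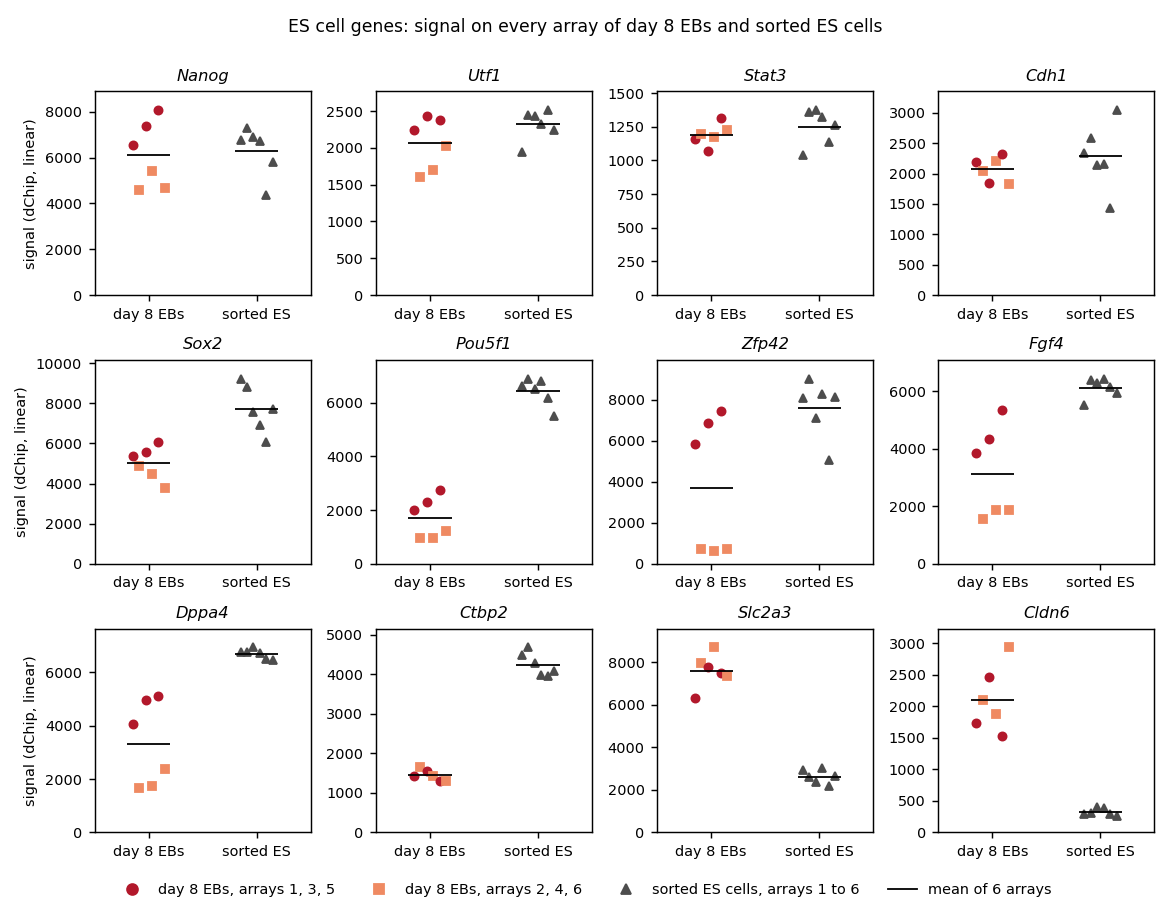
Signal (dChip, linear scale) of 12 ES cell genes on each of the 6 arrays of day 8 EBs, in circles for arrays 1, 3 and 5 and squares for 2, 4 and 6, and of the 6 arrays of sorted ES cells in triangles, with group means as lines. Nanog, Utf1, Stat3 and Cdh1 overlap between the groups, Pou5f1 and Ctbp2 lie lower on every day 8 array, and Zfp42 is at 635 to 729.6 on day 8 arrays 2, 4 and 6 but at 5825 to 7452 on arrays 1, 3 and 5.

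The composite site at which SOX2 and OCT4 bind side by side was looked for in the RefSeq promoters (250 bases before to 50 after each annotated start, build GRCm38.p6), as the SOX letters TTGT, 1 base of any kind and the octamer letters ATGCAAA in a row, on either strand. This search was chosen after the values were seen. It matched 9 of 27025 promoters (0.0333%), and among 78 ES cell genes with a promoter it matched Nanog and Pipox. Both genes were held, so the match went with 2 of 28 held and 0 of 34 lower ES cell genes that have a promoter. The 2 windows are shown because they sit in genes that were held on their brightest probe set. Each is printed 5′ to 3′ on the strand of its gene, with the match (on the opposite strand) in capitals. For Nanog (chr6:122707369-122707470, plus strand) the match begins 75 bases before the start, and for Pipox (chr11:77894010-77894111, minus strand) 194 bases before it.
Nanog: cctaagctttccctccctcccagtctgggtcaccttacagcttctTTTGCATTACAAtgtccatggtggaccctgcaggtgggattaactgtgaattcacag
Pipox: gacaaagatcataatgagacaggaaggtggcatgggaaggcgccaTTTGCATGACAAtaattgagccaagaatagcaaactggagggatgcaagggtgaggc
The match is a description of letters and no evidence of binding. Pipox, a peroxisomal sarcosine oxidase, had 961 (median 976, highest 1000.5) at day 8 and 958 (median 1032, highest 1094) in sorted cells, a change of -0.07 ± 0.04.

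Several genes of the LIF response were held. Stat3, the factor that LIF activates, had 1163, 1197, 1073, 1176, 1316 and 1224 on day 8 arrays 1 to 6, against 1043 (median 1293, highest 1375) in sorted cells. The groups overlapped and the change was -0.06 ± 0.07. Tbx3, a T-box factor of the naive circuit, was held at 0.08 ± 0.21 with medians of 1469 at day 8 and 1393 in sorted cells. With either set of 3 day 8 arrays alone Tbx3 was unresolved. Pim1, a kinase induced by STAT3, ran from 3301 to 3647 at day 8 and from 2744 to 3498 in sorted cells (0.12 ± 0.09). Socs3, the feedback inhibitor of the pathway, was held on its brightest probe set at -0.22 ± 0.09, with medians of 1189 at day 8 and 1371 in sorted cells. That call was a near one (limma adjusted p = 0.0577): Socs3 passed as lower without day 8 array 1 (0.0241), day 8 array 5 (0.0342) or sorted array 4 (0.0496). Its second probe set was lower, with a mean of 408 at day 8 and 1080 in sorted cells (-1.38 ± 0.21, limma adjusted p = 7.5e-06), and the mean of both sets passed as lower (-0.80). Also held were the receptor Fgfr1 (0.08 ± 0.05), the FGF feedback inhibitor Spry4 (0.10 ± 0.07) and alkaline phosphatase Alpl (-0.07 ± 0.10), whose enzyme activity is a common stain for undifferentiated colonies.

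Several chromatin regulators and metabolic genes of ES cells were held as well. The maintenance DNA methyltransferase Dnmt1 had medians of 1878 at day 8 and 2015 in sorted cells (-0.08 ± 0.11). The de novo enzyme Dnmt3a had 1218 and 1292 (-0.06 ± 0.10). The Polycomb methyltransferase Ezh2 (0.06 ± 0.14) and its partner Suz12 (0.16 ± 0.16) were held. The third subunit of their complex, Eed, was lower, at -0.57 ± 0.21 (limma adjusted p = 0.0342). It did not pass without day 8 array 1, 5 or 6 or sorted array 1, 2, 4 or 6 (adjusted p between 0.0503 and 0.0806), nor with either set of 3 day 8 arrays alone. Further held genes were the chromatin remodeler Chd1 (0.06 ± 0.15), the histone acetyltransferase Hat1 (-0.15 ± 0.08), the SIN3 complex member Sap30 (0.12 ± 0.20), the glycine cleavage enzyme Gldc (0.23 ± 0.11), the tetraspanin Cd9 (-0.03 ± 0.17), the homeobox gene Tgif1 (0.00 ± 0.11), the transporter Slc7a7 (0.04 ± 0.16) and the phospholipase Pla2g1b (-0.02 ± 0.05). Of these Gldc passed as higher without sorted array 6 (adjusted p = 0.0479), and Hat1 as lower with day 8 arrays 2, 4 and 6 alone (-0.25). Sap30 was unresolved with either set alone, at 0.50 for arrays 1, 3 and 5 and -0.25 for arrays 2, 4 and 6. Cd9 was likewise unresolved with either set, and Suz12 and Chd1 with arrays 2, 4 and 6. Ddx4 (-0.13 ± 0.13), a germ cell RNA helicase, and Tex19.1 (-0.01 ± 0.12), a germ cell and placenta gene, were held among the germline genes.

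E-cadherin was among the 8 held of 16 epiblast genes. Cdh1, the adhesion molecule of ES cells and epithelia, had 1823, 2111 and 2317 as lowest, median and highest signal at day 8 and 1433, 2251 and 3048 in sorted cells (-0.11 ± 0.12). The NODAL inhibitor Lefty1 was held at 0.01 ± 0.17 on its brightest probe set, with medians of 2521 at day 8 and 2472 in sorted cells, and lower on a second (-0.80 ± 0.19, limma adjusted p = 0.0013). Sox3, a SOX factor of the epiblast and neural plate, was held at 0.02 ± 0.11 and higher on a second probe set (0.28 ± 0.09). The ETS factor Etv4 was held at -0.11 ± 0.08 and lower on a second probe set (-0.29 ± 0.06), and the mean of its sets passed as lower (-0.20). Fgf15 (-0.11 ± 0.09), a secreted FGF, and the POU factor Pou3f1 (0.12 ± 0.10) were held. Of the 32 held ES cell genes that were not dim, 12 have a further probe set, which was lower in 4 (Nanog, Socs3, Lefty1 and Etv4) and higher in 1 (Sox3).

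The other 7 held genes were dim. They are Esrrb and Zfp57 of the naive list, Fgf5 of the epiblast, the germ cell genes Mybl1, Sycp1 and Sycp3, and the mismatch repair gene Msh6. Esrrb, a nuclear receptor central to self-renewal, had medians of only 169 at day 8 and 184 in sorted cells. Sycp1 and Sycp3, parts of the meiotic chromosome axis, were under the floor of 59.59 in both groups on every array. Their held call says nothing beyond that.

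The largest falls among ES cell genes were those of Xlr4a (-2.83 ± 0.22), an X-linked germ cell gene, the stress protein gene Nupr1 (-2.62 ± 0.17), the calmodulin-like Calml4 (-2.62 ± 0.11) and Pou5f1. Xlr4a had 63.8 to 149 at day 8 and 352 to 1097 in sorted cells. Calml4 had 202 to 274 at day 8 and 1214 to 1768 in sorted cells. In the cells on gelatin, from which the EBs were seeded, the mean was 65.1 for Xlr4a and 303 for Calml4. These means lay nearer to the day 8 than to the sorted level. Against cells on gelatin Xlr4a still passed as higher at day 8 and Calml4 as lower. Ctbp2, a corepressor of differentiation genes, was low on all day 8 arrays alike. It had 1435, 1656, 1546, 1421, 1306 and 1310.1 on day 8 arrays 1 to 6, against 3957 (median 4179, highest 4684) in sorted cells, a change of -1.56 ± 0.14 (limma adjusted p = 4.1e-09).

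Zfp42, which encodes the naive-state marker REX1, had 5825, 716, 6845, 635, 7452 and 729.6 on day 8 arrays 1 to 6, against 5058 (median 8115, highest 9032) in sorted cells. Arrays 1, 3 and 5 lay within the sorted range and arrays 2, 4 and 6 far below it. The change was -1.80 ± 0.52 (limma adjusted p = 0.0082, and 0.0683 in a fit of the 12 arrays alone), at -0.17 and unresolved with arrays 1, 3 and 5 alone and -3.44 with arrays 2, 4 and 6 alone. Fgf4, a target of OCT4 and SOX2, had 3849, 1538, 4341, 1859, 5339 and 1882 on day 8 arrays 1 to 6, against 5506 to 6438 in sorted cells (-1.13 ± 0.23). All day 8 arrays lay below the sorted ones, and it was unresolved with arrays 1, 3 and 5 alone (-0.45). Klf4, a factor of the naive circuit, had 930.1 (median 1510.5, highest 2572) at day 8 and 4491 (median 4816, highest 5334) in sorted cells (-1.68 ± 0.32). The F-box gene Fbxo15, a known OCT4 target, had 1431 to 5212 at day 8 and 6336 to 8268 in sorted cells (-1.48 ± 0.29).

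Other falls of at least 2-fold were those of Dppa2 (-1.35 ± 0.33) and Dppa4 (-1.16 ± 0.27), a pair of chromatin-bound early embryo proteins, and of the NODAL coreceptor Tdgf1 (-1.16 ± 0.24). These falls rested on arrays 2, 4 and 6. With arrays 1, 3 and 5 alone none of the 3 passed, at -0.77 for Dppa2, -0.52 for Dppa4 and -0.65 for Tdgf1, while with arrays 2, 4 and 6 alone they were at -1.93, -1.81 and -1.67. The zinc finger gene Rex2 (-1.06 ± 0.29) was likewise at -0.49 and unresolved with arrays 1, 3 and 5 and at -1.63 with arrays 2, 4 and 6. The telomere protein gene Terf1 (-1.34 ± 0.21), the DNA polymerase subunit Pola1 (-1.27 ± 0.11), the Polycomb partner Mtf2 (-1.23 ± 0.22), the acetyltransferase Kat2b (-1.20 ± 0.20) and the nuclear receptor gene Nr0b1 (-1.02 ± 0.18) fell with each set alone. A second, dim probe set was held for Terf1 (0.25 ± 0.10) and Kat2b (-0.02 ± 0.06) and lower for Nr0b1 (-0.18 ± 0.07). Further Mtf2 probe sets were lower (-1.23 ± 0.34 and -1.36 ± 0.27) or, on a dim one, held (-0.003 ± 0.018). The remaining 27 lower genes changed by less. They include Gdf3 (-0.87), a TGF beta ligand, the homeobox gene Gbx2 (-0.86), the gp130 gene Il6st (-0.75), the adhesion molecule Epcam (-0.54) and Tfcp2l1 (-0.55 ± 0.20). Dim second probe sets of Gdf3 (-0.17 ± 0.12) and Il6st (-0.11 ± 0.05) were held. Tfcp2l1 did not pass without day 8 array 2, 4 or 6 or sorted array 6 (adjusted p between 0.0543 and 0.0593) or with arrays 1, 3 and 5 alone (-0.42), and a second probe set of it was higher (0.56 ± 0.13). Of all 45 lower ES cell genes 20 did not pass with arrays 1, 3 and 5 alone, and 2 did not with arrays 2, 4 and 6 alone.

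Of the ES cell genes, 13 were higher at day 8. Cldn6, a tight junction protein of early epithelia, had 1735, 2099, 2469, 1876, 1522 and 2938 on day 8 arrays 1 to 6, against 267 to 410.0 in sorted cells (2.67 ± 0.28, 6.35-fold). The glucose transporter Slc2a3 had 6326 (median 7634, highest 8707) at day 8 and 2200.2 (median 2606, highest 3042) in sorted cells (1.54 ± 0.21). Rest, the repressor of neuronal genes, had 649.8 to 2202 at day 8 and 368 to 634 in sorted cells (1.45 ± 0.36). In these 3 genes the groups did not overlap. The lactate dehydrogenase subunit Ldhb rose by 0.81 ± 0.20, with 10499, 11885 and 11541 on day 8 arrays 1, 3 and 5 and 5934, 6416 and 7567 on arrays 2, 4 and 6, against 4337 to 5789 in sorted cells. It was unresolved with arrays 2, 4 and 6 alone. The rest were the secreted NODAL and BMP antagonist Cer1 (0.80 ± 0.22), the LIF receptor Lifr (0.59 ± 0.17), the zinc finger factor Sall4 (0.48 ± 0.14), the Polycomb cofactor Jarid2 (0.43 ± 0.12), the endoderm factor Foxa2 (0.36 ± 0.07), the splicing regulator Esrp1 (0.36) and 3 more that changed by less than 1.5-fold. Esrp1 did not pass without sorted array 5 (adjusted p = 0.0508). Lifr did not pass in a fit of the 12 arrays alone (adjusted p = 0.0612) or with day 8 arrays 1, 3 and 5 (0.40), and of its 4 other probe sets 2 were higher, 1 was held and 1, a dim one, was lower (-0.47 ± 0.15). Cer1 did not pass with arrays 1, 3 and 5 alone (0.44), and Sall4 (0.42) and Jarid2 (0.27) did not with arrays 2, 4 and 6. Unresolved were Hells, Zfp281, Rhox5, Jade1, Klf2, Pim3, Icam1, Nodal, Smarcad1 and Enah. Of these Hells passed as lower without day 8 array 2 (adjusted p = 0.0417), day 8 array 4 (0.0422) or sorted array 5 (0.00906), Zfp281 without day 8 array 4 (0.0416) or sorted array 5 (0.048), Klf2 without day 8 array 3 (0.0227) or 5 (0.0394), and Icam1 without day 8 array 5 (0.0252). Klf2, Icam1 and Pim3 were lower with arrays 2, 4 and 6 alone (-0.87, -0.82 and -0.64), and Zfp281 with arrays 1, 3 and 5 alone (-1.09). Second probe sets of Enah (-1.11 ± 0.28) and Smarcad1 (-0.96 ± 0.17) were lower. Xlr4a belongs to a family of close relatives, which a probe set may not tell apart.

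The split between the 2 sets of day 8 arrays ran through the ES cell genes. In 42 of the 107 (39.3%) arrays 2, 4 and 6 all lay below arrays 1, 3 and 5, and in 8 (7.48%) all lay above, against 15.5% and 18.4% of all 8251 genes. The share below was 9 of 13 among core factors and 15 of 27 among naive-state genes, and 0 of 16 among epiblast genes. Set against sorted cells with arrays 1, 3 and 5 alone, 26 ES cell genes were lower, 9 higher and 45 held. With arrays 2, 4 and 6 alone, 51 were lower, 9 higher and 29 held. The same fits put 13.2% and 17.5% of all genes lower. Of the 39 held genes, 27 were held with all 6 arrays and with each set alone, and 5 were lower with arrays 2, 4 and 6 (Utf1, Hcfc1, Socs3, Hat1 and Esrrb). Nanog, Tbx3, Sap30 and Cd9 were unresolved with each set alone. With arrays 2, 4 and 6 alone Suz12 and Chd1 were unresolved and Msh6 was higher (0.22). Of 17 imprinted genes, 12 (70.6%) were higher on each of arrays 2, 4 and 6 than on arrays 1, 3 and 5. The sets were found from the arrays' own values, so these counts are a description.

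**Figure D3:**
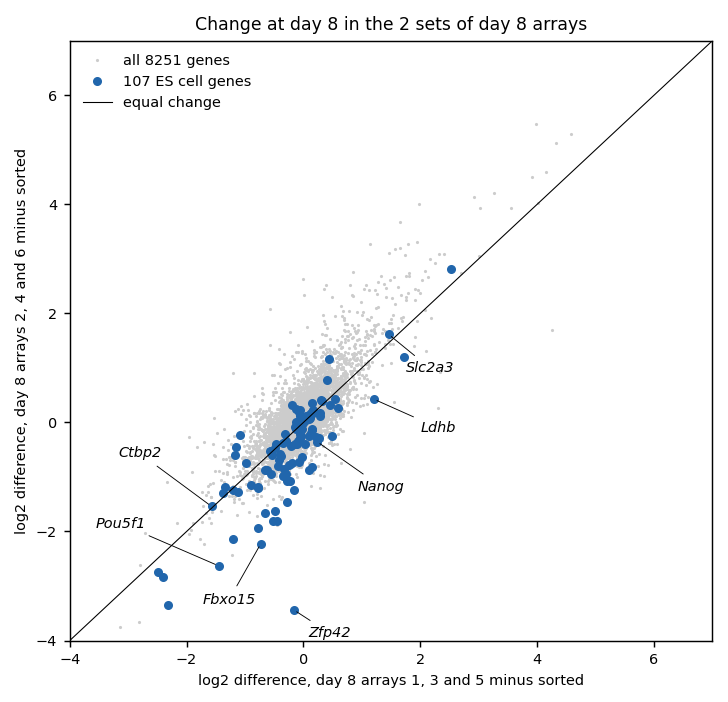
Log2 difference from sorted ES cells of day 8 arrays 2, 4 and 6 (vertical) and of arrays 1, 3 and 5 (horizontal) for all 8251 genes in grey and the 107 ES cell genes in blue; the line marks equal change. Zfp42 lies at -0.17 and -3.44, while Ctbp2 and Slc2a3 lie on or near the line.

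Markers of the feeder layer, on which the sorted cells were grown, also differed between the groups. Of all genes 19.4% were lower at day 8 and 16.9% higher. Of 32 fibroblast and matrix markers measured, 15 were lower (46.9%), 5 higher (15.6%), 8 held and 4 unresolved. Their summed signal was 29082 to 29893 on day 8 arrays 1, 3 and 5, 37864 to 44550 on arrays 2, 4 and 6, and 40302 to 49934 in sorted cells, with 82835 to 132812 in cells on gelatin. The fibroblast surface protein Thy1 had 204 to 292 at day 8 and 688 to 1054 in sorted cells (-1.72 ± 0.15). Fap and Prrx1, both defining fibroblast genes, averaged under the floor in both groups. Periostin (Postn, 1.45 ± 0.38), a matrix protein, was higher at day 8, did not pass with arrays 1, 3 and 5 alone (0.38) or in a fit of the 12 arrays (adjusted p = 0.0515), and had 240.4 to 527 on arrays 1, 3 and 5 and 1073 to 2569 on arrays 2, 4 and 6, against 163 to 343 in sorted cells. The part of feeder RNA in the other results was not tested.

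Outside endoderm and heart, the largest rise was that of Ctsh, a lysosomal cysteine protease. It had 3864 (median 5825, highest 7551) at day 8 and 284 (median 289.6, highest 303) in sorted cells, 18.4-fold (4.21 ± 0.36, limma adjusted p = 9.2e-10). Srgn, the core protein of a secretory granule proteoglycan, had 4178 to 4441 at day 8 and 171 to 345 in sorted cells (4.02 ± 0.57). Cyp26a1, which breaks down retinoic acid, had 2646 (median 2971, highest 3532) at day 8 and 376 (median 469.9, highest 534) in sorted cells (2.72 ± 0.28). The 6 day 8 values of Srgn and Cyp26a1 lay close together, and the sets of arrays did not separate in them.

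Other large rises were uneven over the day 8 arrays. Nrk, an X-linked kinase gene of the placenta, had 258, 1185, 229, 1464, 216 and 508 on day 8 arrays 1 to 6 and was under the floor on every sorted array, so that its change of 2.99 ± 0.40 is taken against the floor. A second, dim Nrk probe set read 214 to 381 at day 8 and 159 to 198 in sorted cells, a change of 0.55 ± 0.12. A change against the floor was also measured for the prolactin family gene Prl7d1 (2.40 ± 0.29), with 159 to 686 at day 8. Id2, an inhibitor of bHLH factors, had 1428 to 1992 on arrays 1, 3 and 5 and 4811 to 5862 on arrays 2, 4 and 6, against 526 to 663 in sorted cells (2.43 ± 0.29). Nrp1, a coreceptor for semaphorin and VEGF, ran from 1204 to 5938 at day 8 and from 389.5 to 564 in sorted cells (2.53 ± 0.32). The zinc transporter Slc39a8 (2.75 ± 0.22), the membrane protease Tmprss2 (2.70 ± 0.17), the angiomotin gene Amot (2.59 ± 0.20), the complement regulator Cd55 (2.59 ± 0.23) and the parathyroid hormone receptor Pth1r (2.43 ± 0.22) complete the list with Eif2s3y (2.98 ± 0.42), Cldn6 and Hba-x.

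Among the 15 largest falls 3 genes were of the feeder marker list (Mfap5, Lox and Mgp) and 4 of the ES cell lists (Xlr4a, Nupr1, Calml4 and Pou5f1). Mfap5, a microfibril protein, had 116 (median 155, highest 214) at day 8 and 1276 (median 1857, highest 2031) in sorted cells (10.8-fold lower, -3.44 ± 0.25). A second Mfap5 probe set, not dim, was held, with means of 430.1 at day 8 and 451 in sorted cells (-0.07 ± 0.05). The collagen crosslinking enzyme Lox had 83.9 to 335 at day 8 and 892 to 1955 in sorted cells (-3.23 ± 0.36). Also lower were the membrane protein Emp1 (-2.37 ± 0.36), the calcium-binding S100a6 (-2.01 ± 0.26), the protease Mmp3 (-2.00 ± 0.44), the calcification inhibitor Mgp (-1.95 ± 0.21), the chemokine Ccl7 (-1.94 ± 0.35, under the floor on 5 day 8 arrays), the fatty acid transporter Slc27a2 (-1.86 ± 0.17) and the antigen-presenting Cd1d1 (-1.82 ± 0.30). Ipp, a kelch-domain gene, had 489.9 to 663 at day 8 and 2918 to 5045 in sorted cells (-2.71 ± 0.11), and the serpin Serpinb6c changed by -1.97 ± 0.14. In cells on gelatin Ipp averaged 479.9 and Serpinb6c 153, again nearer to the day 8 than to the sorted level. Against cells on gelatin Ipp still passed as higher at day 8.

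**Figure D4:**
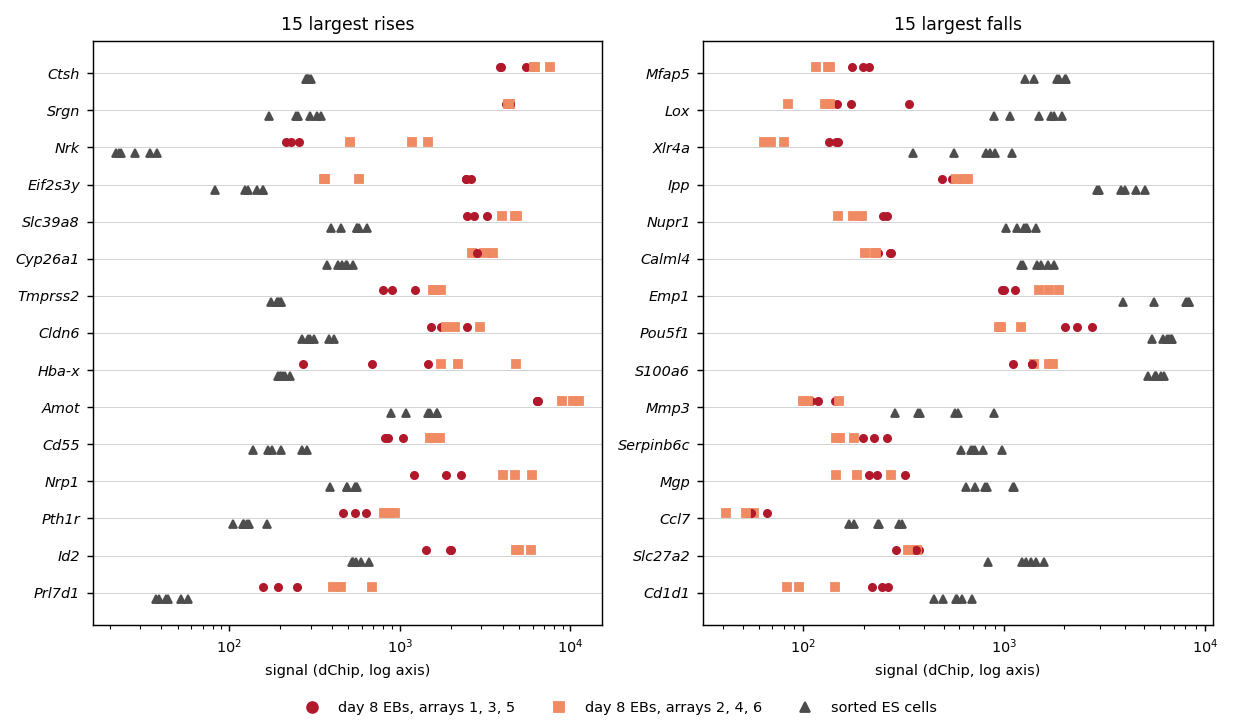
Signal (dChip, log axis) on each array for the 15 genes with the largest rise (left) and the 15 with the largest fall (right) at day 8 among genes whose groups do not overlap, endoderm and heart genes left out. Day 8 EBs are drawn above sorted ES cells in each row, with arrays 1, 3 and 5 as circles and 2, 4 and 6 as squares; Eif2s3y lies at 2434 to 2608 and 358 to 579 in these sets.

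The list with the largest share of falls was that of the ATF4 stress response. ATF4 is a bZIP factor translated when amino acids run short or unfolded proteins build up, and it drives amino acid synthesis, transport and tRNA charging. Of 32 such genes 20 were lower at day 8 (62.5%), 3 higher, 7 held and 2 unresolved, with a median of -0.47. With arrays 2, 4 and 6 alone 16 of the 32 were lower, a smaller share than the 18 of 27 naive-state genes. Atf4 itself had 2757 (median 3425, highest 4375) at day 8 and 5347 (median 7054, highest 7392) in sorted cells (-0.97 ± 0.10). Nupr1, an ATF4 target also counted among the ES cell genes, had 149 to 259.9 at day 8 and 1019 to 1438 in sorted cells. The mitochondrial folate enzyme Mthfd2 had 2877 (median 3459, highest 4208) at day 8 and 9131 (median 9499, highest 10688) in sorted cells (-1.50 ± 0.10). In all 3 genes every day 8 array lay below every sorted one.

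Trib3, a pseudokinase that restrains ATF4, fell on all arrays, with 658 to 809 at day 8 and 1397 to 1985 in sorted cells (-1.27 ± 0.07, limma adjusted p = 9.6e-14). The tRNA synthetases Mars1 (-1.14 ± 0.09), Nars (-1.06) and Aars (-0.79 ± 0.11), the serine synthesis enzyme Psat1 (-0.99 ± 0.14) and asparagine synthetase Asns (-0.78 ± 0.13) fell as well. Higher were Cebpg (0.53 ± 0.14), the partner of ATF4, Vldlr (0.26), a lipoprotein receptor, and Herpud1 (0.20 ± 0.08), a protein of endoplasmic reticulum degradation. With day 8 arrays 1, 3 and 5 alone none of these 3 passed. Herpud1 passed narrowly (adjusted p = 0.0363) and did not without day 8 array 1, 4, 5 or 6 or sorted array 2, 3, 4 or 5 (between 0.0569 and 0.114), under quantile normalization (0.113), with centred arrays (0.0691) or with the 12 arrays alone (0.0742). Against cells on gelatin 12 of the list were lower and 5 higher, and Trib3 had a gelatin mean of 694. In that comparison 2160 of all 8251 genes were lower and 1547 higher.

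The core of the site that ATF4 dimers bind was looked for in the same RefSeq promoters as TGATGNAA on either strand, a search also chosen after the values were seen. It was present in 1096 of 27025 promoters (4.06%) and in 160 of 6576 promoters of measured genes (2.43%). Of the 27 list genes with a promoter 9 held it (33.3%), 7 of them among 17 lower genes and 2 among 10 others. The list was made of ATF4 response genes, so its share set against that of all promoters is no test. Over all measured genes it stood in 3.80% of promoters of lower genes, 2.43% of held and 1.22% of higher genes. These counts include the list genes, and a cause of the differences was not tested. The windows of 3 genes that fell and of Herpud1, which passed narrowly as higher, are shown to set like letters beside different changes. Each is printed 5′ to 3′ on the strand of its gene (GRCm38.p6) with the match in capitals: Nupr1 at chr7:126625528-126625625 (minus strand), Asns at chr6:7693210-7693277 (minus), Aars at chr8:111033685-111033782 (plus) and Herpud1 at chr8:94386272-94386369 (plus).
Nupr1: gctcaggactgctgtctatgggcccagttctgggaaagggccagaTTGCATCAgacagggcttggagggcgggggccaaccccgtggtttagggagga
Asns: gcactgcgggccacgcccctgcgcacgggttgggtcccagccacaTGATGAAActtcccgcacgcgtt
Aars: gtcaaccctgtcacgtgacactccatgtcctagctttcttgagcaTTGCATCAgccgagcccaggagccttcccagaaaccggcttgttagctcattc
Herpud1: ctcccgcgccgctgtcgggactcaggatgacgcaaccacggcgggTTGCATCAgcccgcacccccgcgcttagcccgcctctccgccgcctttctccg
The match shown begins 110 bases before the start in Nupr1, 23 in Asns, and 112 in Aars and Herpud1. Aars has a second match, not shown, which begins at base 10 after the start. In Nupr1, Aars and Herpud1 the letters shown are the same 8 bases on the same strand, beside changes of -2.62, -0.79 and 0.20. A match is a description and no evidence of binding.

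Imprinted genes, expressed from 1 parental copy and known for control of fetal growth, gave the largest share of rises outside endoderm. Of 17 measured 11 were higher (64.7%), 1 lower, 3 held and 2 unresolved, with a median of 0.51. The growth factor Igf2 had 11235 (median 15640.0, highest 20321) at day 8 and 2487 (median 2999, highest 3666) in sorted cells (2.32 ± 0.21). A second, dim Igf2 probe set was held (0.03 ± 0.07). Mest, a hydrolase-like gene of mesoderm, had 2249 to 5779 at day 8 and 579 to 802 in sorted cells (2.28 ± 0.25). The cell cycle inhibitor Cdkn1c (1.80 ± 0.28), the sarcoglycan Sgce (1.80 ± 0.23), Gnas (1.02 ± 0.13) and Dlk1 (1.08 ± 0.22) also rose. Peg3, a zinc finger gene, was higher (0.51 ± 0.13) and Peg10, a gene from a retrotransposon that the placenta needs, lower (-0.80 ± 0.12). Peg3 did not pass with day 8 arrays 1, 3 and 5 alone (0.22). On Sgce and Peg10, neighbours in the genome, the signs thus differed.

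The insulin-like growth factor axis moved beside Igf2, with 6 of 13 genes higher (46.2%), 2 lower (15.4%) and 4 held. Of all genes 16.9% were higher and 19.4% lower. The receptor Igf2r, which clears the ligand, rose by 0.93 ± 0.13. The binding proteins Igfbp1 (1.95 ± 0.20), Igfbp2 (1.29 ± 0.24) and Igfbp4 (0.93 ± 0.11) were higher. A second, dim Igfbp1 probe set was held (-0.06 ± 0.09). Igfbp7 was lower (-1.20 ± 0.30), with 128 to 260.0 at day 8 and 333 to 576 in sorted cells. Igfbp7 averaged 2294 in cells on gelatin.

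Genes of simple epithelia rose in 11 of 21 cases (52.4%), with 2 lower. The keratins that pair in simple epithelia, Krt18 (2.18 ± 0.23) and Krt8 (1.64 ± 0.17), were higher, as were Krt19 (2.03 ± 0.35), the claudin Cldn7 (2.09 ± 0.27) and occludin (Ocln, 1.49 ± 0.19). Krt18 had 4392 to 7098 at day 8 and 1203 to 1281 in sorted cells. Anxa1, an annexin, was lower (-1.50 ± 0.32), and so was Epcam, the epithelial adhesion molecule that ES cells share.

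In lysosomes 16 of 29 genes were higher (55.2%), 4 lower and 8 held, with a median of 0.30. Besides Ctsh the proteases Ctsc (1.74 ± 0.35), Lgmn (1.54 ± 0.21), Ctsz (1.26 ± 0.13) and Tpp1 (1.14 ± 0.12) and the cholesterol exporter Npc1 (1.44 ± 0.13) rose. Lgmn had 1792 to 2461 at day 8 and 690.1 to 789.7 in sorted cells. The glucuronidase Gusb fell (-0.70 ± 0.12).

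Glycolysis and hypoxia genes were higher in 13 of 28 cases (46.4%) and lower in 1, with a median of 0.25. The lactate transporter Slc16a1 had 1396 to 4004 at day 8 and 257 to 925 in sorted cells (2.11 ± 0.30). P4ha1, a collagen prolyl hydroxylase induced by HIF, had 2952 to 3596 at day 8 and 665 to 974 in sorted cells (2.07 ± 0.36). Egln1, the oxygen sensor that marks HIF for breakdown, rose by 1.24 ± 0.25. Hif1a itself was the member that fell (-0.72 ± 0.25, adjusted p = 0.0278), which did not pass without day 8 array 1, 3 or 5 or sorted array 1 or 2 (between 0.0589 and 0.0783), with arrays 2, 4 and 6 alone (-0.25) or with the 12 arrays alone (0.0571). The HIF target Ldha was held (0.07 ± 0.09).

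**Figure D5:**
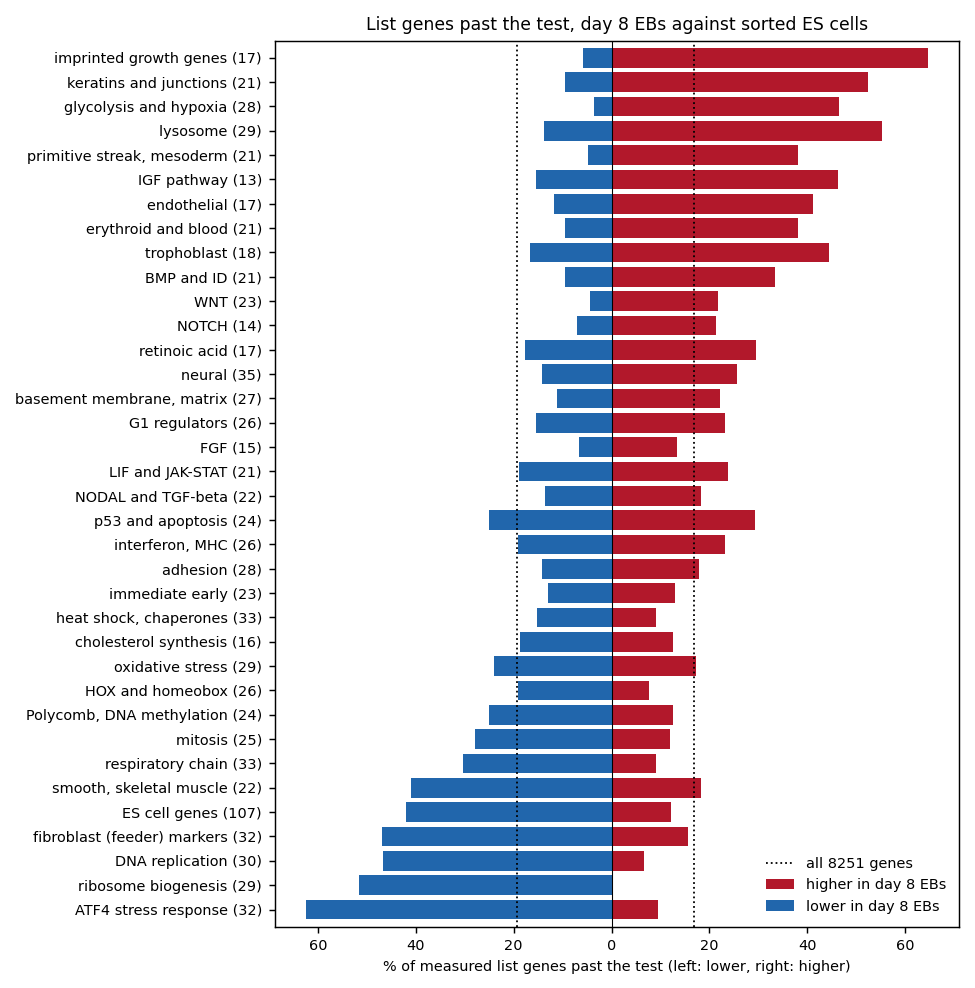
Share of each list's measured genes (number in brackets) that passed the test at day 8 against sorted ES cells, with lower genes to the left and higher genes to the right; dotted lines give the shares of all 8251 genes, 19.4% and 16.9%. The ATF4 list reaches 62.5% lower and the imprinted list 64.7% higher.

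In ribosome biogenesis 15 of 29 fell (51.7%) and 0 rose (median -0.26), against 19.4% and 16.9% of all genes. The falls were led by the RNA polymerase I factor Rrn3 (-0.98 ± 0.16), with Nolc1 (-0.84 ± 0.11), Ppan (-0.69 ± 0.15) and Nhp2 (-0.63 ± 0.11), nucleolar proteins of rRNA processing. In DNA replication 14 of 30 fell (46.7%) and 2 rose (6.67%), with a median of -0.24. Cdt1, which loads the MCM helicase onto origins, had 2062 to 3661 at day 8 and 4470.3 to 6892 in sorted cells (-1.04 ± 0.14). A second Cdt1 probe set was held, with means of 2595 at day 8 and 2802 in sorted cells (-0.12 ± 0.08). The helicase subunits Mcm2 (-0.42 ± 0.10) and Mcm3 (-0.43 ± 0.07) fell. The clamp loader subunit Rfc5 was lower (-0.59 ± 0.09), with a second, dim probe set higher (0.32 ± 0.07), and the mean of both did not pass (-0.14).

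In mitosis 7 of 25 genes were lower (28%) and 3 higher (12%), against 19.4% and 16.9% of all genes. The phosphatase Cdc25c, which opens mitosis, was lower at -0.93 ± 0.12 on its brightest probe set and held on a second (-0.05 ± 0.09). The proliferation marker Mki67 was lower at -0.66 ± 0.24 (limma adjusted p = 0.0303). Its adjusted p was between 0.0587 and 0.0802 without day 8 array 1, 3 or 6 or sorted array 2, 4 or 6. With day 8 arrays 2, 4 and 6 alone it was 0.243. The kinetochore motor Cenpe was higher at 1.88 ± 0.31, and its second, dim probe set was held (-0.12 ± 0.06). Among G1 regulators 6 of 26 rose (23.1%) and 4 fell (15.4%), shares not far from those of all genes. Cdkn1a, the p21 inhibitor, had 4020.4 (median 4433, highest 5061) at day 8 and 1131 (median 1301, highest 1494) in sorted cells (1.78 ± 0.19), while Mycn, a driver of growth, was lower (-0.76 ± 0.16). The cyclin Ccnd2 was higher (0.70 ± 0.17). The p53 and apoptosis list had 7 of 24 higher (29.2%) and 6 lower (25%). Btg1 (1.48 ± 0.15), an antiproliferative gene, the caspase Casp8 (0.92 ± 0.12) and Apaf1 (0.86 ± 0.17), the core of the apoptosome, rose most after Cdkn1a.

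The respiratory chain had 10 of 33 genes lower (30.3%) and 3 higher (9.09%), against 19.4% and 16.9% of all genes. Ndufa5 (-0.68 ± 0.09), Uqcrc1 (-0.67 ± 0.10), Cox7b (-0.67 ± 0.11) and Cox6c (-0.50 ± 0.05) are subunits of complexes I, III and IV. In the oxidative stress list 7 of 29 fell (24.1%) and 5 rose (17.2%), against 19.4% and 16.9% of all genes. Mitochondrial superoxide dismutase Sod2 had 1224 to 2094 at day 8 and 3389 to 4134 in sorted cells (-1.25 ± 0.12), with Gsta4 (-1.20 ± 0.22) and the pentose pathway enzyme Tkt (-0.90 ± 0.08) lower too. The glutathione peroxidase Gpx3 (0.93 ± 0.09) was higher.

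Of 21 BMP genes 7 were higher (33.3%), 2 lower (9.52%) and 11 held, against 16.9% higher and 19.4% lower of all genes. Those higher include Id2, Id3 (1.34 ± 0.15) and Id1 (1.02 ± 0.12), the signal transducer Smad1 (1806 to 3685 at day 8 and 669 to 1079 in sorted cells) and the homeobox target Msx2 (dim, 0.96 ± 0.11), and in these 5 the groups did not overlap. Of 23 WNT genes 5 were higher (21.7%) and 1 lower (4.35%), against 16.9% and 19.4% of all genes. Those higher included the secreted inhibitors Dkk1 (1.38 ± 0.11), Sfrp1 (1.29 ± 0.29) and Frzb (0.60 ± 0.11). The ligand Wnt11 was higher (0.65 ± 0.08) and Wnt4 lower (-0.58 ± 0.08).

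NODAL and TGF beta genes were higher in 4 of 22 cases, among them the receptor Acvr2b (0.70 ± 0.17), and lower in 3, with Inhbb, an activin subunit, at -0.93 ± 0.22. These shares (18.2% and 13.6%) lie near those of all genes (16.9% and 19.4%). FGF genes were mostly held (12 of 15, 80%, against 57.2% of all genes), and 6 of those held were dim. Fgf4 was the member that fell, and Dusp6, a phosphatase induced by FGF signalling, had 3466, 3413 and 2075 on day 8 arrays 2, 4 and 6 and 1643 to 1718 on arrays 1, 3 and 5, against 726 to 1624 in sorted cells (0.90 ± 0.22). In the NOTCH list 3 of 14 were higher (21.4%, against 16.9% of all genes), with the receptor Notch2 at 1.54 ± 0.21 and its target Hes1 at 0.30 ± 0.07. A second Notch2 probe set was held, with means of 766 at day 8 and 839.9 in sorted cells (-0.13 ± 0.06). Of 21 LIF and JAK-STAT genes 5 were higher (23.8%) and 4 lower (19%), against 16.9% and 19.4% of all genes. The oncostatin receptor Osmr (-1.48 ± 0.12) and gp130 (Il6st, -0.75 ± 0.12) were lower, while Lifr, the STAT inhibitor Pias1 (0.71 ± 0.12) and Socs2 (0.63 ± 0.13) were higher.

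Of 17 retinoic acid genes 5 were higher (29.4%), 3 lower (17.6%) and 8 held (47.1%), against 16.9%, 19.4% and 57.2% of all genes. Crabp2, which carries retinoic acid to its receptor, had 389 to 1053 at day 8 and 154 to 234 in sorted cells (1.70 ± 0.27). Crabp1, the other cellular binding protein, had 435 to 1365 at day 8 and 1037 to 1904 in sorted cells (-1.17 ± 0.24). The pair is named because its members moved in opposite directions. The retinol carrier Rbp4, also an endoderm gene, rose by 4.94 ± 0.27.

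The embryonic globins were above sorted cells on all day 8 arrays, to an uneven degree. Hba-x, the embryonic alpha-like globin, had 1465, 4801, 689, 1739.8, 271 and 2183 on day 8 arrays 1 to 6, against 195 to 227 in sorted cells (2.66 ± 0.40). Hbb-y, its beta-like partner, had 2406, 8498, 1170.0, 4343, 665 and 4321, against 529.9 to 595 in sorted cells (2.20 ± 0.41). Both globins were highest on array 2 and lowest on array 5. Erythroid and blood genes were higher in 8 of 21 cases (38.1%) and lower in 2 (9.52%), against 16.9% and 19.4% of all genes. Laptm5, a lysosomal membrane protein of white cells, was lower at -1.69 ± 0.20. Endothelial genes were higher in 7 of 17 cases (41.2%) and lower in 2 (11.8%), against 16.9% and 19.4% of all genes. Those higher included the vessel cadherin Cdh5 (1.79 ± 0.25), Cldn5 (1.21 ± 0.12), Flt1 (0.31 ± 0.06) and Kdr (0.37 ± 0.11). Kdr did not pass in a fit of the 12 arrays alone (limma adjusted p = 0.0634). A second, dim Flt1 probe set rose more (1.65 ± 0.21), with 171 to 517 at day 8 and 83.3 to 104 in sorted cells. Cdh5 had 1566, 860.0 and 636 on day 8 arrays 2, 4 and 6 and 314 to 402 on arrays 1, 3 and 5, against 134 to 185 in sorted cells.

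Neural genes did not move one way, with 9 of 35 higher (25.7%), 5 lower (14.3%) and 17 held (48.6%). Of all genes 16.9% were higher, 19.4% lower and 57.2% held. The progenitor factors Zic1 (1.58 ± 0.33), Sox11 (1.49 ± 0.20) and Sox4 (1.37 ± 0.23) were higher, and the neuronal cytoskeleton genes Stmn2 (-1.29 ± 0.24) and Tubb3 (-0.86 ± 0.12) lower. Zic1 had 969.6 on day 8 array 2 and 142 to 484 on the others, against 94.1 to 117 in sorted cells. Primitive streak and early mesoderm genes were higher in 8 of 21 cases (38.1%) and lower in 1 (4.76%), against 16.9% and 19.4% of all genes. Changes were modest for the LIM factors Isl1 (0.94 ± 0.14) and Lhx1 (0.44 ± 0.08). Hox and homeobox genes were held in 19 of 26 cases (73.1%), 8 of which were dim. They were lower in 5 (19.2%, near the 19.4% of all genes), among them Hoxc6 (-0.67 ± 0.11) and Hoxb3 (-0.51 ± 0.09).

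Trophoblast genes were higher in 8 of 18 cases (44.4%) and lower in 3 (16.7%), against 16.9% and 19.4% of all genes. Tpbpa, a spongiotrophoblast gene, had 702 to 1891 at day 8 and 536 to 621 in sorted cells (0.89 ± 0.18). The list shares its keratins with epithelia and Igf2 with the imprinted genes. Smooth and skeletal muscle genes were higher in 4 of 22 cases (18.2%, near the 16.9% of all genes). They were lower in 9 (40.9%, against 19.4% of all genes). Actg2, an enteric actin, was higher (1.91 ± 0.29) and Tagln (-1.52 ± 0.12), Acta1 (-1.42 ± 0.28) and Myl9 (-0.94 ± 0.17) were lower. Endoderm genes, given here as counts and shares only, were higher in 26 of 36 cases (72.2%) and lower in 0. Heart genes were higher in 8 of 21 (38.1%) and lower in 2 (9.52%).

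Adhesion genes were higher in 5 of 28 cases and lower in 4, shares (17.9% and 14.3%) near the 16.9% and 19.4% of all genes. Cd24a (2.24 ± 0.19), a surface glycoprotein, had 4767 to 11400.0 at day 8 and 1246 to 1958 in sorted cells, and Cd47 (1.96 ± 0.27), which signals against phagocytosis, rose too. N-cadherin (Cdh2, 1.36 ± 0.40) had 404 to 1160.4 at day 8, 148 to 321 in sorted cells and a mean of 2016 in cells on gelatin. The laminin receptor Itga6 was lower (-0.71 ± 0.17). Of 27 basement membrane and matrix genes 6 were higher (22.2%), 3 lower (11.1%) and 17 held (63%, against 57.2% of all genes). Col4a1, the main basement membrane collagen, had 4191 to 5446 at day 8 and 522 to 699 in sorted cells (3.03 ± 0.28), and the collagen chaperone Serpinh1 (1.12 ± 0.19), Sparc (1.11 ± 0.18) and Nid2 (0.71 ± 0.18) rose.

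Polycomb and DNA methylation genes were held in 14 of 24 cases (58.3%, near the 57.2% of all genes), with 3 higher and 6 lower. The methyl-CpG reader Mbd2 rose (1.16 ± 0.13), and of the chromobox proteins Cbx2 (0.41 ± 0.08) rose and Cbx7 (-0.31 ± 0.05) fell. Interferon and antigen presentation genes were higher in 6 of 26 cases and lower in 5 (23.1% and 19.2%, against 16.9% and 19.4% of all genes). B2m (0.85 ± 0.16), the light chain of MHC class I, and the heavy chains H2-K1 (0.73 ± 0.13) and H2-D1 (0.68 ± 0.15) rose, and the interferon-induced Gbp2 fell (-0.76 ± 0.15). A second H2-K1 probe set was held (-0.05 ± 0.05). Heat shock genes were held in 23 of 33 cases (69.7%), with the chaperone Hsph1 lower (-0.95 ± 0.17) and the endoplasmic reticulum isomerase Pdia4 higher (1.01 ± 0.18). Cholesterol synthesis genes were higher in 2 of 16 cases (Ebp, 0.67 ± 0.14, and Dhcr7, 0.39) and lower in 3, with Cyp51 at -0.80 ± 0.30 (adjusted p = 0.0364, and between 0.0528 and 0.0951 without day 8 array 1, 3, 5 or 6 or sorted array 1, 2, 4 or 6). Immediate early genes were higher in 3 of 23 cases and lower in 3 (13% each). Those shares, and the 12.5% higher and 18.8% lower of the cholesterol list, lie near or under those of all genes. Of the KLF factors among the immediate early genes Klf6 rose (0.70 ± 0.16) and Klf4 fell.

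Further calls ended with 1 set of day 8 arrays alone. With arrays 1, 3 and 5 the changes that no longer passed were those of Gdf3 (-0.28), Esrp1 (0.31), Kdr (0.10), Dusp6 (0.51), Ccnd2 (0.34), Dhcr7 (0.27), H2-D1 (0.41), Klf6 (0.39), Cdh2 (0.94), Cebpg (0.42) and Vldlr (0.15). With arrays 2, 4 and 6 they were those of Igfbp7 (-0.89), Inhbb (-0.63), Nid2 (0.44), Cyp51 (-0.32) and Nars (-0.59). A floor at the 25th percentile ended the calls of genes with low signal, namely Prl7d1, Ccl7, Isl1, Zic1, Msx2, Hoxb3, Wnt11, Mbd2 and Cbx7, at changes between -0.18 and 0.62.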

How the data were processed

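Total RNA of ES cells and EBs was amplified in 2 rounds, labelled and hybridized to MgU74Av2 arrays. The authors normalized the arrays and modeled probe sets with dChip (version not given in the sources used here), and deposited 1 column of linear signal intensity per array. A value of 0 occurred in 104 of 387128 cases. The 66 Affymetrix controls among 12488 probe sets were not tested. Of the 12422 tested, 10833 carry 1 gene symbol in the platform annotation, 396 several and 1193 none, and only the first kind was named. Values were floored at the 5th percentile, log2 transformed and fitted with limma 3.58.1 in R 4.3.3 (lmFit, eBayes with a variance trend), with 1 coefficient per group for the 5 groups of the series. The number of arrays limits the precision. Replicate numbers were not used to pair arrays, because same-numbered arrays correlated between -0.161 and 0.494 after removal of group means.

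The members and the gene lists were chosen with earlier results of these data known. Genes were named by rule: ES cell genes that were held or fell most, the 15 largest rises and 15 largest falls without overlap between groups (endoderm and heart genes left out), up to 4 genes of each list with the largest change, and paralogs that moved in opposite directions. Further members (such as Ldha and Krt8) and the gelatin means were picked after their values were seen. Alternatives were other scalings and floors, dim probe sets left out, the 12 arrays alone, array weights, a replicate block, a fit with no variance trend, ES cells on gelatin as day 0, averaging all probe sets of a gene, a 2-fold margin, each array left out in turn and, chosen after seeing the data, each set of 3 day 8 arrays alone. They were run for 254 genes, those named by rule and those picked later. The fit was tested on simulated data with independent noise on each array. Those data hold no sets of like day 8 arrays, so they cannot show how the 2 sets affect the p-values. Promoter sequences are RefSeq's (GRCm38.p6).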

Additional observations from a re-analysis of the deposited data

Results flagged for a closer look

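Of 152 groups of 6 arrays tested for an array far from the others (Dixon's criterion at the 95% level), 5 were past it, and chance flags about 1 in 20 groups. In Ccl7, day 8 array 5 had 65.82 and the other day 8 arrays were at the floor of 59.59. In sorted cells, array 5 was low for Sox3 (440.8, next array 515) and Dppa2 (3486, next 4854), array 4 for Etv4 (1197, next 1379) and array 3 for Nrp1 (389.5, next 491). The split of Zfp42 over the day 8 arrays (635, 716 and 729.6 on arrays 4, 2 and 6, and 5825 to 7452 on arrays 1, 3 and 5) was not found by this criterion, which looks for 1 array apart from the rest.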

How the results depend on the processing

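Over the 254 genes for which alternatives were run, 200 of them past the threshold, the replicate block, no variance trend and leaving out dim probe sets changed no call. Quantile normalization and median centring ended the call of Herpud1 and made Hells pass as lower. The block gave 44 lower and 40 held ES cell genes. Under the scalings the median change over probe sets was -0.02 or -0.04. Lower probe sets numbered 1445 with dim probe sets left out, in which fewer were tested. Probe sets at least 2-fold higher numbered 448 with day 8 arrays 2, 4 and 6 alone, and those at least 2-fold lower 449 with cells on gelatin as day 0. ES cell genes lower numbered 26 with day 8 arrays 1, 3 and 5 alone. Against cells on gelatin 36 of the 107 were lower, 30 higher and 31 held. In that comparison 2160 of all 8251 genes were lower and 1547 higher. Leaving out 1 array gave 39 to 47 lower and 36 to 40 held ES cell genes. Of the 254 genes 9 lost their call at least once when 1 array was left out (Ccn1, Cyp51, Eed, Esrp1, Herpud1, Hif1a, Mfng, Mki67 and Tfcp2l1), and 7 gained one (Gldc, Hells, Icam1, Kdm5d, Klf2, Socs3 and Zfp281). The fit of the 12 arrays ended 8 calls (Zfp42, Kdr, Kit, Mfng, Herpud1, Hif1a, Lifr and Postn) and made Nodal and Rhox5 pass as lower. Arrays 1, 3 and 5 alone ended 30 calls and arrays 2, 4 and 6 alone 12. Array weights ended 1 call (Esrp1) and gave 7 new ones, and averaging each gene's probe sets ended 2 (Rfc5 and Lifr), gave 3 (Socs3, Etv4 and Smarcad1) and put Tfcp2l1 at 0.0032. A floor at the 25th percentile ended 10 calls, and one at the 1st percentile put Fap (-0.22) and Sycp1 (-0.24), both under the 5th percentile, past the test as lower. The cause of these changes was not tested.

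With cells on gelatin as day 0, 36 of the 254 genes changed sign. Of these, 9 passed as higher, namely Rhox5 (3.30), Zfp42 (1.66), Nanog (1.11), Rex2 (1.01), Fbxo15 (0.84), Xlr4a (0.63), Tex19.1 (0.52), Klf2 (0.50) and Ipp (0.28). A further 16 passed as lower, namely Cdh2 (-1.68), Ccn1 (-1.42), Dusp6 (-0.90), Socs2 (-0.83), Chd1 (-0.68), Esrp1 (-0.67), Slc7a7 (-0.65), Apaf1 (-0.64), Sox11 (-0.53), Sox3 (-0.49), Lefty1 (-0.47), Sall4 (-0.43), Bag3 (-0.41), Pou3f1 (-0.37), Pim1 (-0.25) and Btg2 (-0.17). The other 11 did not pass, with Kat2b at 0.48, Serpinb6c at 0.31, Nr0b1 and Atf4 at 0.21, Asns at 0.107, Fdps at 0.10, Fgf4 at 0.088, Trib3 at 0.019, Mfng at 0.00012, B2m at -0.034 and Sparc at -0.32. Against cells on gelatin a further 36 genes lost their call, and 19 genes without a call gained one. The genes that gained a call include some held against sorted cells. Of these, Tbx3 (1.17), Sap30 (0.88) and Suz12 (0.72) passed as higher. Cdh1 (-0.74), Hcfc1 (-0.67), Etv4 (-0.54) and Hat1 (-0.45) passed as lower. A held call in these results is thus one against sorted cells only. Levels under the floor limit Nrk, Prl7d1, Ccl7, Sycp1 and Sycp3.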
